A study of Mus musculus with 7 samples.

Results

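Histone acetyltransferases and deacetylases are described here in 7 single mouse oocytes held at the second meiotic metaphase (MII). The group was set by name and holds 10 of the 37620 genes in the table: the zinc-dependent deacetylase genes Hdac1, Hdac2, Hdac3, Hdac6 and Hdac8, the NAD-dependent deacetylase gene Sirt1, and the acetyltransferase genes Ep300, Crebbp, Kat2a and Kat8. All 10 had a value in every oocyte. The 3 control oocytes (WT1, WT2 and WT4) were Hiraf/f, with floxed alleles of Hira, and the 4 knockout oocytes (KO1 to KO4) were Hiraf/f, Zp3-Cre, each by its genotype label. The titles of all 7 samples, controls included, also carry the tag Zp3-Cre, and the labels do not say what the tag means for the controls. Hira encodes a chaperone that places the histone variant H3.3 on chromatin, and the Zp3 promoter drives Cre in the growing oocyte. The comparison asks how transcripts differ in the mature oocyte after that deletion. The series describes 4 control oocytes, of which 3 were analysed here, and the labels give no strain, age, animal or sequencing lane for any oocyte.

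Acetyltransferases move an acetyl group from acetyl-CoA to lysines of histone tails, which weakens the grip of histones on DNA and makes docking sites for bromodomain proteins. Deacetylases remove it. HDAC1, HDAC2 and HDAC3, of class I, work in nuclear corepressor complexes, HDAC6 is mainly cytoplasmic and acts on tubulin, and sirtuins spend NAD. During meiotic maturation of the mouse oocyte histones are deacetylated while transcription is silent, so the RNA measured at MII is stored RNA made earlier, during growth.

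Values are FPKM, fragments per kilobase of gene scaled to the reads of the library, as the authors deposited them. Each library is 1 oocyte and no animal is named, so each genotype counts as 1 sample: means ± SD give the spread between oocytes (n = 3 WT and n = 4 KO), no test of genotype is given, and "higher" and "lower" refer to these libraries. Reads in genes came to 15340782 to 25940519 per oocyte, and 6959 to 7286 genes in WT and 7664 to 8222 in KO oocytes reached 1 FPKM. Hira itself was lower in all KO oocytes (0.0242 to 0.0997 FPKM) than in all WT oocytes (0.291 to 0.347). All 12 oocyte markers were above the expression filter, which asks for FPKM of at least 1 in at least 3 oocytes. Their summed level was 20140.5 to 21537 FPKM in WT and 13122 to 15668 in KO oocytes. Dppa3 was the most abundant (9676 ± 285 and 5718 ± 1020 FPKM). By the 1.5-fold limit set below, 5 of the 12 were lower in KO oocytes, Zp2 the most, and 0 higher. Of all genes above the filter 7.92% were lower and 22.6% higher. All KO oocytes were below all WT oocytes for 5 of the 12, against 8.94% of genes above the filter. With quantile normalization 1 of the 12 was lower by that limit. Somatic markers of the follicle (cumulus and granulosa, 20 genes) had means under 1 FPKM in both genotypes for 18 genes, and 9, including Amh, Foxl2 and Nr5a1, were at 0 in every oocyte. Their sum was 3.37 to 4.18 FPKM in WT and 7.01 to 9.80 in KO oocytes. Without Fshr, at 0 in WT and 2.96 ± 2.09 FPKM in KO oocytes, and Kitl (3.11 ± 0.181 and 4.52 ± 1.18) it was 0.148 to 0.972 in WT and 0.326 to 1.08 in KO. All 4 matched blood cell markers were under 1 FPKM in mean. Of 4 matched genes of early embryonic activation, Zscan4d was at 1.16 ± 0.857 FPKM in WT and 6.34 ± 5.25 in KO oocytes with overlap, and the other three were under 1 in both. The part of these markers in the differences below was not tested.

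The 10 genes spanned mean levels from 0.222 FPKM (Hdac6) to 20.3 FPKM (Crebbp) in WT oocytes, and Sirt1 stood apart from the rest between the genotypes. It was 4.50-fold higher in KO oocytes, Hdac1 was 2.12-fold higher with overlap, and no member was over 1.5-fold lower. A gene counted as over 1.5-fold apart when its mean log2(FPKM + 1) in KO oocytes minus that in WT oocytes, called its difference here, passed 0.58 in size. Of all 8033 genes that passed the filter, 22.6% lay past that limit upward in KO oocytes and 7.92% downward, so 2 of the 8 members that passed it being higher and 0 lower is close to the background. The median difference was 0.21 over all 10 members, 0.18 over the 8 above the filter and 0.18 over all genes above the filter. Hdac3 and Hdac6 did not pass the filter.

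**Figure D1:**
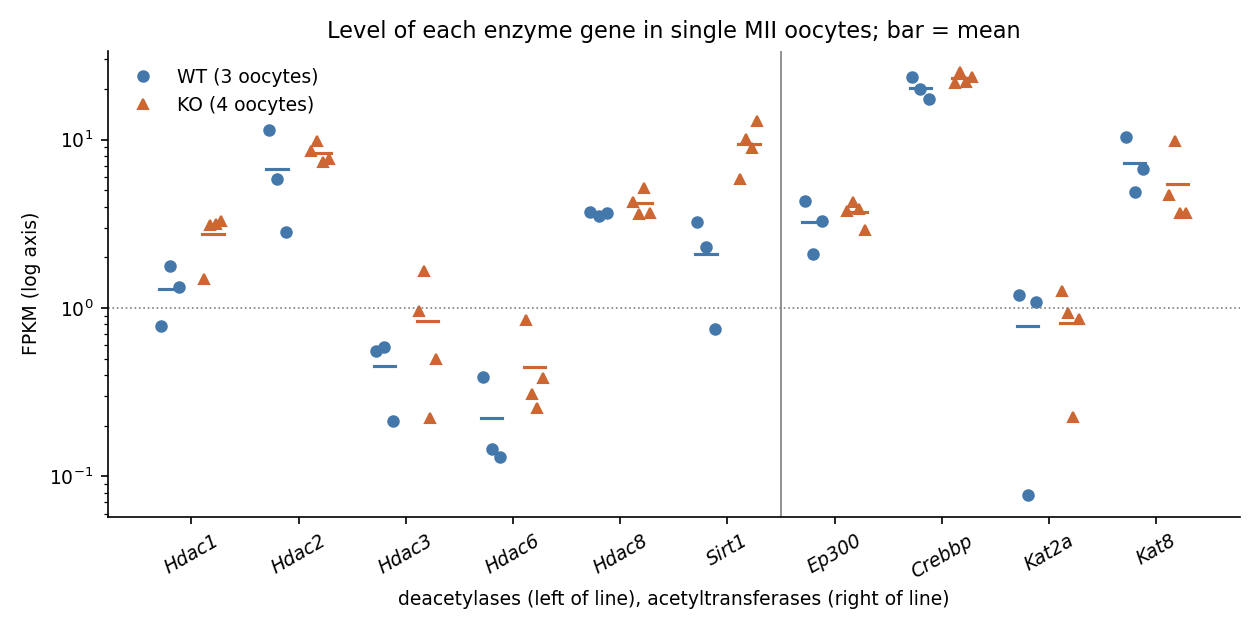
FPKM on a log axis for each of the 10 genes in each oocyte, WT as circles and KO as triangles, with a bar at the mean; the dotted line marks 1 FPKM. The Sirt1 values of the KO oocytes, 5.83 to 12.97, all lie above those of the WT oocytes, 0.746 to 3.26, whereas the groups overlap for the other nine genes.

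Sirt1 (ENSMUSG00000020063) encodes a nuclear deacetylase that consumes NAD and acts on histones and on transcription factors such as p53 and FOXO proteins. Its level was 3.26, 2.30 and 0.746 FPKM in WT1, WT2 and WT4, and 5.83, 10.1, 8.96 and 12.97 FPKM in KO1 to KO4. The lowest KO oocyte, KO1, was above the highest WT oocyte, WT1, and WT4 lay well below the other WT oocytes. The means were 2.10 ± 1.27 and 9.46 ± 2.95 FPKM, and the difference of mean log2(FPKM + 1) was 1.80. Every KO oocyte above every WT oocyte was found for 18.9% of the genes above the filter, and a difference as large as that of Sirt1 for 1.37% of them. Among the 2400 genes with a mean of 3 to 10 FPKM, like Sirt1, 27.5% were higher by over 1.5-fold and 21.6% had every KO oocyte above every WT oocyte. Read counts, worked out from the steps of the FPKM values, were 700, 583 and 143 in the WT and 1187, 2532, 2951 and 3531 in the KO oocytes. The rate of Sirt1 reads was 4.47 times as high in KO oocytes, with an exact 95% interval of 4.23 to 4.73 that covers counting error only. The difference was 1.64 with median-ratio scaling and 1.55 with quantile normalization, and the groups did not overlap under either. Without WT4 it was 1.43. Of its exon bases 1.22% overlap a gene on the opposite strand, Gm16145.

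The sequence before the start site of Sirt1 is shown because this gene carried the main difference, beside those of Hdac2 and Crebbp, which in KO oocytes were the most abundant zinc deacetylase and acetyltransferase of the group. Each is the 250 bases upstream of the RefSeq start on GRCm38.p6, a later build than the mm9 of the submitters' notes. Capitals mark GC boxes (GGGCGG), E boxes (CACGTG) and CCAAT boxes (CCAAT), searched on both strands, where neighbouring matches can overlap.
Sirt1, chr10:63339036-63339285, minus strand: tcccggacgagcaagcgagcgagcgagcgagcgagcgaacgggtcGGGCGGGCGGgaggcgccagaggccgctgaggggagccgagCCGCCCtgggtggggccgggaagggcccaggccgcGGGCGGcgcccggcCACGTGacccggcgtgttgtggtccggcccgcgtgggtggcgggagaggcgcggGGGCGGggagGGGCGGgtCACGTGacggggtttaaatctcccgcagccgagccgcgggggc
Hdac2, chr10:36974294-36974543, plus strand: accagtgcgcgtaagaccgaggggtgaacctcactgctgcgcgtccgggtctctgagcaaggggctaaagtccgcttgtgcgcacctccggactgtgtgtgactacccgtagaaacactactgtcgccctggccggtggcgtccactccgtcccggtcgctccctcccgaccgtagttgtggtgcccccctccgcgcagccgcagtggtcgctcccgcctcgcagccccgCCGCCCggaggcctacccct
Crebbp, chr16:4213405-4213654, minus strand: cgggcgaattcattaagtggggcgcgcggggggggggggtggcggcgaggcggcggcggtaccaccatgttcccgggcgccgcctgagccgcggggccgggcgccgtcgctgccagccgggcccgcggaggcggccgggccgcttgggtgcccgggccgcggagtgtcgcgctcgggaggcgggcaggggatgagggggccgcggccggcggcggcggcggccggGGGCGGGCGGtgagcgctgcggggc
The Sirt1 window held 6 GC boxes and 2 E boxes, that of Hdac2 held 1 GC box, and that of Crebbp held 2 overlapping GC boxes. Of 32841 promoter windows of this length, 32.7% held a GC box, 6.02% an E box and 33.9% a CCAAT box. Among the 7558 windows of genes above the filter these shares were 54.8%, 8.55% and 36.6%. The table had 9 windows for 8 of the 10 members, since Kat8 had 2 and Hdac1 and Hdac3 none. Of the 9, 7 held a GC box and Sirt1 alone had an E box. GC content was 79.2% for Sirt1, 68.8% for Hdac2 and 84.0% for Crebbp, and 48.4% to 73.2% in the other windows, against a median of 59.2% for genes above the filter. The windows of the 8 genes ranged from 5 CpG dinucleotides, in 1 of the Kat8 windows, to 44 in Crebbp. These matches describe letters in a window and do not show that a factor binds there.

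Class I deacetylases Hdac1 (ENSMUSG00000028800) and Hdac2 (ENSMUSG00000019777), which form the paired catalytic core of the SIN3, NuRD and CoREST complexes, were unequal in FPKM. Hdac2 was the higher of the pair in every oocyte, by 2.12- to 14.5-fold in WT and 2.33- to 5.79-fold in KO oocytes. With GENCODE M21 exon lengths in place of the authors', Hdac2 stayed higher in each oocyte but by less. In reads per kilobase of exon, relative to the reads in genes, it was then at 4.27 against 2.69 in WT4. In KO4 it was at 11.7 against 6.70. Hdac1 was at 0.785, 1.79 and 1.33 FPKM in WT1, WT2 and WT4, and at 1.48, 3.096, 3.14 and 3.28 FPKM in KO1 to KO4. KO2 to KO4 lay above all WT oocytes, and KO1 lay below WT2. The means were 1.30 ± 0.501 and 2.75 ± 0.850 FPKM. The difference of mean log2(FPKM + 1) was 0.70, reached or passed by 17.3% of genes above the filter. It was under the 1.5-fold limit with median-ratio scaling (0.55), with quantile normalization (0.41) and without WT1 (0.52). Of the 50-base stretches of Hdac1 transcripts, 58.7% also occur in other annotated genes, most of them in the copy Gm10093. That copy was at 0.0466 ± 0.0428 FPKM in WT and 0.0266 ± 0.0531 in KO oocytes, and how the counting divided shared reads is not given in the sources used here. None of the Hdac2 stretches is shared. If shared reads were dropped, Hdac1 would be understated beside Hdac2, which was not tested.

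Hdac2 was at 11.4, 5.81 and 2.82 FPKM in WT1, WT2 and WT4, a 4.03-fold range among control oocytes, and at 8.57, 9.83, 7.32 and 7.65 FPKM in KO1 to KO4. All KO values lay inside the WT range. The means were 6.66 ± 4.33 and 8.34 ± 1.12 FPKM. The difference of mean log2(FPKM + 1) was 0.44, and it was 0.87 without WT1 and 0.02 without WT4. The ratio of Hdac1 to Hdac2 within an oocyte does not depend on scaling between libraries. It was 0.0692, 0.307 and 0.471 in the WT oocytes and 0.173, 0.315, 0.429 and 0.429 in the KO oocytes. These ranges overlap. The mean log2 ratio differed by 0.55, which turned to -0.27 without WT1, the oocyte with the highest Hdac2 and the lowest Hdac1.

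The class I gene Hdac3 (ENSMUSG00000024454), whose protein is the deacetylase of the NCoR and SMRT corepressors, was scarce. It was at 0.557, 0.590 and 0.212 FPKM in the WT oocytes, on 88, 110 and 30 reads, and at 0.961, 1.66, 0.223 and 0.499 FPKM in KO1 to KO4, on 144, 307, 54 and 100 reads. Its highest and lowest KO oocytes, KO2 and KO3, were 7.47-fold apart: KO1 and KO2 were above all WT oocytes, and KO3 was as low as WT4. Hdac6 (ENSMUSG00000031161), the cytoplasmic tubulin deacetylase, was the lowest of the 10 in both genotypes. It was at 0.389, 0.146 and 0.130 FPKM in WT, and at 0.847, 0.307, 0.253 and 0.382 FPKM in KO oocytes. KO1 was the highest, and WT1 lay above 3 of the 4 KO oocytes. Mean FPKM in KO oocytes was 1.84 times that in WT for Hdac3 and 2.02 times for Hdac6. At these levels the pseudocount of 1 compresses the differences to 0.29 and 0.23. With a pseudocount of 0.1 they were 0.57 and 0.74, the second past the 1.5-fold limit, and with quantile normalization -0.02 and -0.08.

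Hdac8 (ENSMUSG00000067567), a class I enzyme that removes acetyl groups from the cohesin subunit SMC3, was the steadiest gene among control oocytes. It was at 3.73, 3.53 and 3.66 FPKM in WT1, WT2 and WT4, a spread of 2.77% of the mean. KO1 to KO4 had 4.28, 3.62, 5.13 and 3.69 FPKM. KO1 and KO3 were above all WT oocytes, and KO2 and KO4 were within their range. The means were 3.64 ± 0.101 and 4.18 ± 0.699 FPKM. The difference of mean log2(FPKM + 1), 0.15, was -0.02 after median-ratio scaling and -0.10 after quantile normalization.

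Crebbp (ENSMUSG00000022521) was the most abundant of the 4 acetyltransferase genes in every oocyte, and its paralogue Ep300 (ENSMUSG00000055024) was present at a far lower level. The pair encode the large coactivators CBP and EP300, which acetylate histones at enhancers and promoters. Crebbp was at 23.5, 20.1 and 17.4 FPKM in WT and at 21.8, 25.3, 22.0 and 23.6 FPKM in KO oocytes, so the groups overlapped (20.3 ± 3.09 against 23.2 ± 1.61). Its 2444 to 5324 reads per oocyte were the most of any member. Ep300 was at 4.34, 2.11 and 3.28 FPKM in WT and at 3.76, 4.28, 3.86 and 2.92 FPKM in KO oocytes, with all KO values inside the WT range. The differences of 0.19 and 0.18 were those of the median gene, and they became -0.01 and 0.02 with median-ratio scaling. Crebbp exceeded Ep300 by 5.30- to 9.54-fold in WT and 5.70- to 8.10-fold in KO oocytes. With GENCODE M21 exon lengths the excess was smaller, 3.68- to 6.63-fold in WT and 3.96- to 5.63-fold in KO oocytes. The mean log2 ratio of Ep300 to Crebbp FPKM differed by 0.04 between genotypes.

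Kat8 (ENSMUSG00000030801), which acetylates the tail of histone H4 in the MSL and NSL complexes, was the only member with a lower mean in KO oocytes. It was at 10.4, 4.90 and 6.67 FPKM in WT1, WT2 and WT4, and at 4.67, 9.88, 3.68 and 3.67 FPKM in KO1 to KO4. KO1, KO3 and KO4 were below all WT oocytes, whereas KO2 was near the highest of them. The means were 7.31 ± 2.79 and 5.47 ± 2.97 FPKM, and the difference of mean log2(FPKM + 1) was -0.40. This passed the 1.5-fold limit without KO2 (-0.68), without WT2 (-0.62) and with quantile normalization (-0.62), and it was -0.15 without WT1. Of the Kat8 exon bases 4.22% overlap the gene Prss8 on the opposite strand, and reads of the pair cannot be told apart if strand was not used in counting, which the sources used here do not give.

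Kat2a (ENSMUSG00000020918), the acetyltransferase of the SAGA and ATAC coactivator complexes, was near 1 FPKM and passed the filter in exactly 3 oocytes. It was at 1.19, 0.0770 and 1.09 FPKM in WT, on 144, 11 and 118 reads, and at 1.25, 0.932, 0.226 and 0.866 FPKM in KO oocytes, on 144, 132, 42 and 133 reads. WT2 and KO3 were low and the other oocytes similar, and the means of 0.785 ± 0.615 and 0.819 ± 0.430 FPKM hardly differed. Its paralogue Kat2b had no read in any WT oocyte, and 32, 2, 0 and 47 reads in KO1 to KO4, at 0.154 ± 0.170 FPKM.

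**Figure D2:**
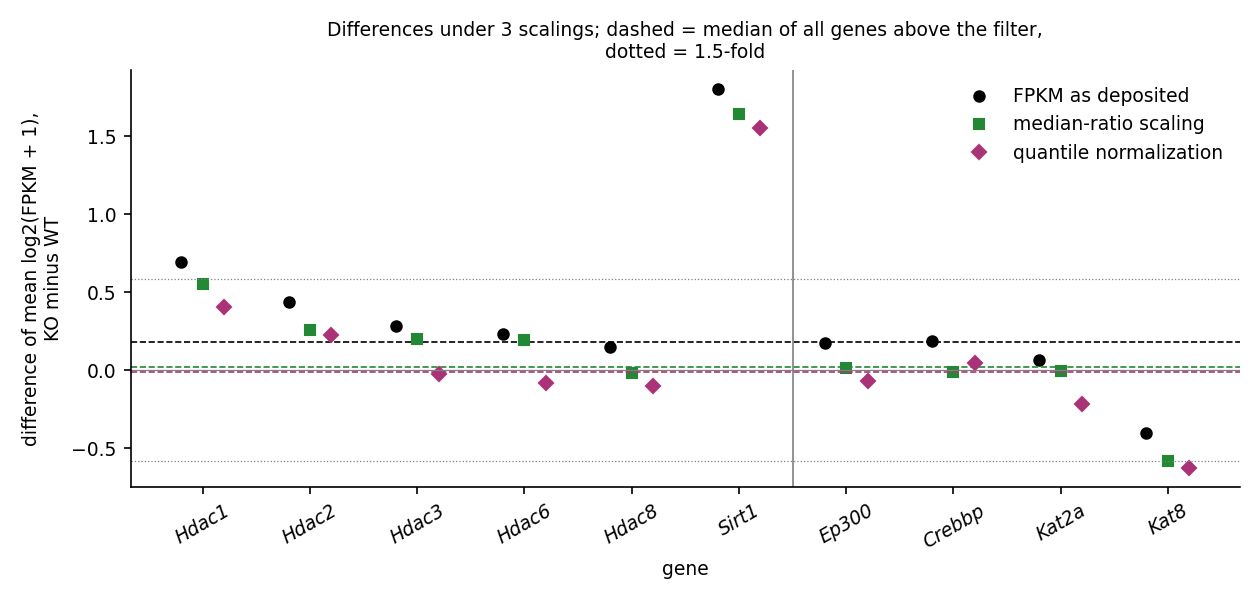
Vertical axis, mean log2(FPKM + 1) of KO oocytes minus that of WT oocytes for each gene, with FPKM as deposited (circles), median-ratio scaling (squares) and quantile normalization (diamonds); dashed lines give the median over all genes above the filter and dotted lines 1.5-fold. Sirt1 stays between 1.55 and 1.80, and Hdac8, Ep300 and Crebbp lie near the median of all genes. Kat2a does so except with quantile normalization (-0.22 against -0.01).

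The order of levels was the same at the top and differed below it. In WT oocytes Crebbp led, followed by Kat8 and Hdac2, then Hdac8 and Ep300, then Sirt1, Hdac1, Kat2a, Hdac3 and Hdac6. In KO oocytes Sirt1 was second by its mean, where it had been the sixth in WT. Crebbp was the one gene clear of its neighbour: its lowest value exceeded the highest of any other member in WT (17.4 against 11.4) and in KO oocytes (21.8 against 12.97). Below it, each gene overlapped the next in the order, in WT and in KO oocytes. FPKM rests on gene lengths that the authors used. With the exon lengths of the GENCODE M21 annotation in their place, Crebbp still led in WT, at 13.8 ± 2.01 on a scale of reads per kilobase of exon relative to the reads in genes, with Hdac2 second (10.1 ± 6.45). Sirt1 then came first in KO oocytes (22.5 ± 6.91 against 16.0 ± 1.06 for Crebbp), and both of these pairs overlapped.

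Acetyltransferase transcripts were fewer relative to deacetylase transcripts in all 4 KO oocytes than in any of the WT oocytes. The summed FPKM of the 6 deacetylase genes was 20.1, 14.2 and 8.89 in WT1, WT2 and WT4, and 22.0, 28.6, 25.03 and 28.5 in KO1 to KO4. The highest WT oocyte was below the lowest KO oocyte. The summed FPKM of the 4 acetyltransferase genes was 39.4, 27.2 and 28.4 in WT and 31.5, 40.4, 29.8 and 31.1 in KO oocytes, which overlap. The ratio of acetyltransferase to deacetylase FPKM within an oocyte was 1.96, 1.92 and 3.19 in WT and 1.43, 1.41, 1.19 and 1.09 in KO oocytes, or 2.36 ± 0.724 against 1.28 ± 0.168. WT4, with the lowest deacetylase sum, had the highest ratio. The mean log2 ratio differed by -0.85, by -0.61 without WT4, and by -0.99 with reference exon lengths. The size of the ratio depends on the lengths: with reference exon lengths it was 1.04 ± 0.376 in WT and 0.506 ± 0.0867 in KO oocytes, still without overlap, and below 1 in place of above 1 in the KO oocytes.

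Within the deacetylases the share of Sirt1 was larger in all KO oocytes. It made up 16.2%, 16.3% and 8.39% of the deacetylase sum in WT1, WT2 and WT4, and 26.6%, 35.3%, 35.8% and 45.6% in KO1 to KO4. Hdac2 was the largest share in WT1 and WT2 (56.5% and 41.0%), whereas Hdac8 was the largest in WT4 (41.1%). In KO1 Hdac2 still led (39.0%), and in KO2 to KO4 Sirt1 did. With reference exon lengths Sirt1 led in KO1 too, where its share was 34.6%, and its share was 18.9% ± 6.02 in WT and 44.4% ± 8.19 in KO oocytes. Without Sirt1, the summed zinc deacetylases were 8.15 to 16.8 FPKM in WT and 15.5 to 18.5 in KO oocytes, which overlap. The ratio of acetyltransferases to these 5 genes was 2.34, 2.29 and 3.48 in WT and 1.95, 2.18, 1.85 and 2.01 in KO oocytes, still without overlap, though the highest KO oocyte (KO2) and the lowest WT oocyte (WT2) were close. Without Crebbp among the acetyltransferases, the ratio to all 6 deacetylases was 0.844 ± 0.374 in WT and 0.385 ± 0.121 in KO oocytes, which overlap. These sums weigh genes by transcript level and say nothing of enzyme activity.

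**Figure D3:**
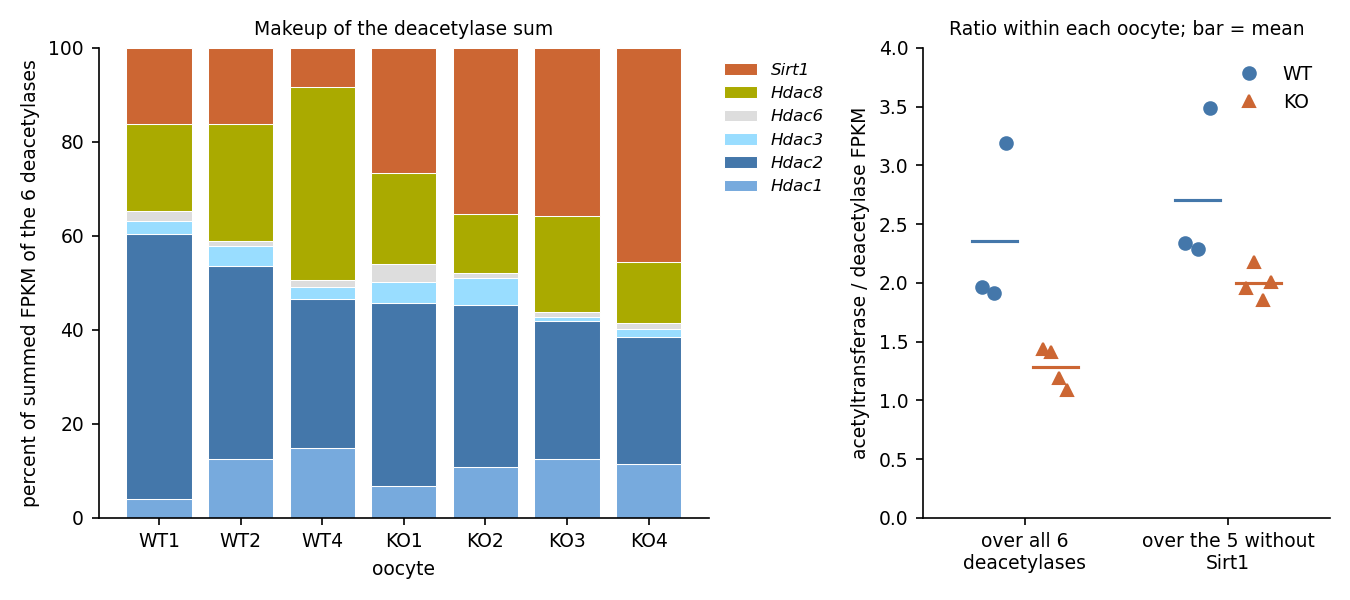
Left, percent of the summed FPKM of the 6 deacetylase genes taken by each gene in each oocyte; right, ratio of summed acetyltransferase to deacetylase FPKM in each oocyte (WT circles, KO triangles, bar at the mean), with and without Sirt1. The Sirt1 share is 8.39% to 16.3% in WT and 26.6% to 45.6% in KO oocytes, and neither ratio overlaps between genotypes.

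Outside the 10 members, no deacetylase gene above the filter was over 1.5-fold higher in KO oocytes. Of 6 further zinc deacetylases only Hdac9 passed the filter (1.01 ± 0.740 FPKM in WT and 1.46 ± 0.425 in KO, with overlap), and the other five had means under 1 FPKM, with Hdac7 at 0 in every oocyte. Of 6 further sirtuins 3 passed. Below the filter, Sirt2 was at 0.0279 ± 0.0303 FPKM in WT and 0.154 ± 0.0588 in KO oocytes without overlap. It had only 3, 9 and 0 reads in WT and 13, 15, 43 and 30 in KO oocytes. Every KO oocyte above every WT oocyte was found for 18.9% of genes above the filter. Sirt3 (0.272 ± 0.154 and 0.938 ± 0.943) and Sirt7, which had the lower mean in KO (0.228 ± 0.0879 and 0.154 ± 0.123), overlapped. Sirt4, a mitochondrial sirtuin, was lower in every KO oocyte: it was at 7.40, 11.4 and 12.6 FPKM in WT and 6.11, 4.38, 4.75 and 6.39 in KO oocytes, a difference of -0.82. All KO oocytes below all WT oocytes was found for 8.94% of genes above the filter. Sirt6, a chromatin sirtuin, was at 4.28 ± 1.43 and 4.21 ± 2.14 FPKM, and the mitochondrial Sirt5 at 1.55 ± 0.991 and 1.74 ± 1.18.

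Other acetyltransferases differed both ways. Of 15 genes 11 passed the filter, 1 higher by over 1.5-fold and 2 lower, and for 3 all KO oocytes were below all WT oocytes. Over all genes above the filter these shares were 22.6%, 7.92% and 8.94%. Their median difference was 0.21, and 0.05 after median-ratio scaling. Hat1, which acetylates newly made histone H4 before it is deposited, was the most abundant (76.5 ± 7.04 FPKM in WT and 53.5 ± 13.3 in KO oocytes), and its highest KO value (71.49) was just below its lowest WT value (71.51). Elp3, the catalytic subunit of Elongator, was 2.95-fold lower in KO oocytes without overlap (2.91 ± 0.677 against 0.985 ± 0.493 FPKM). Naa40, which acetylates the amino ends of histones H2A and H4, was at 13.3 ± 7.82 and 23.0 ± 4.72 FPKM with overlap.

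Among partners of HDAC1 and HDAC2, 26 of 32 genes of the SIN3, NuRD and CoREST complexes passed the filter. By over 1.5-fold 5 were higher and 1 lower, and the median was 0.13. Of all genes above the filter, 22.6% were higher and 7.92% lower. All KO oocytes lay above all WT oocytes for 18.9% of them and below for 8.94%. Arid4a, a SIN3 subunit, was at 9.56 ± 1.38 FPKM in WT and 21.9 ± 2.48 in KO oocytes, and the NuRD remodeller Chd4 had the next largest difference (0.87), both without overlap. Rbbp7, a histone-binding subunit shared by several complexes, was far more abundant than the enzymes it serves, at 711 ± 71.9 and 770 ± 82.0 FPKM with overlap. After median-ratio scaling 2 were higher and 1 lower, and the median was -0.02. In the HDAC3 list 4 of 7 genes passed, and 1 was past the limit, downward. That was Tbl1xr1, which exchanges corepressors for coactivators (20.1 ± 1.96 against 11.3 ± 1.48 FPKM, without overlap), whereas the scaffold Ncor1 was at 3.60 ± 0.765 and 5.55 ± 0.619, also without overlap. Gps2 (4.57 ± 0.601 and 4.44 ± 1.17) and Cops2 (39.1 ± 5.83 and 36.5 ± 3.94) overlapped.

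Of 23 genes of the KAT2A complexes SAGA and ATAC, 16 passed. By over 1.5-fold 3 were higher and 0 lower, and the median was 0.02. The shares over all genes above the filter were 22.6% and 7.92%. For groups without overlap they were 18.9% upward and 8.94% downward. Atxn7, of the SAGA deubiquitinase module, was at 3.78 ± 0.906 FPKM in WT and 9.31 ± 2.03 in KO oocytes. Its ubiquitin protease Usp22 was at 2.65 ± 1.52 and 5.10 ± 0.0355. Eny2, the most abundant gene of the list and part of the same module, went the other way (204 ± 20.6 and 149 ± 23.9), and none of these 3 genes overlapped between groups. After median-ratio scaling 2 genes were higher and 3 lower, with a median of -0.12. Of 10 genes of the KAT8 complexes MSL and NSL, 9 passed, of which 3 were higher and 0 lower by that limit. Their median was 0.44, and 0.32 after median-ratio scaling. Ogt, the transferase of O-linked GlcNAc, was at 2.19 ± 0.704 and 5.06 ± 1.37 FPKM without overlap, and the NSL subunit Kansl2 at 14.4 ± 5.84 and 27.4 ± 8.48 with overlap. Msl3, the most abundant, was at 27.7 ± 6.10 and 35.8 ± 3.33. Kat8 itself had a lower mean in KO oocytes, as given above.

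Readers of acetyl-lysine numbered 19, of which 16 passed. Of those 3 were higher by over 1.5-fold and 0 lower, and the median was 0.14. Among all genes above the filter 22.6% were higher and 7.92% lower, and 18.9% had every KO oocyte above every WT oocyte. The bromodomain gene Brd2 was at 2.72, 1.79 and 1.72 FPKM in WT and at 4.67, 6.44, 4.73 and 6.12 in KO oocytes, a difference of 1.08. Brd8, of the TIP60 complex, was at 3.89 ± 0.479 and 7.04 ± 0.589, again without overlap. The germline reader Brdt was the most abundant, at 138 ± 13.7 and 111 ± 15.0 with overlap. After median-ratio scaling 1 reader, Brd2, was higher by over 1.5-fold, and the median was -0.05.

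Of 12 genes that supply the cofactors acetyl-CoA and NAD, 7 passed the filter, 3 of them higher by over 1.5-fold and 0 lower. Of all genes above the filter 22.6% were higher and 7.92% lower. Groups did not overlap for 18.9% of them upward and 8.94% downward. Nampt, whose enzyme is rate-limiting in the NAD salvage that sirtuins depend on, was at 1.07, 1.57 and 0.822 FPKM in WT and at 5.15, 3.53, 3.71 and 3.94 in KO oocytes. Its mean was 3.53-fold higher with no overlap. The difference of 1.24 became 1.10 after median-ratio scaling and 0.97 after quantile normalization. Pdhb (12.0 ± 1.85 and 20.5 ± 2.46) and Pdha1 (2.78 ± 1.57 and 5.26 ± 1.54), subunits of the pyruvate dehydrogenase that makes mitochondrial acetyl-CoA, were over 1.5-fold higher, Pdha1 with overlap. The list's median was 0.44, and 0.32 after median-ratio scaling, when 2 genes were higher and 1 lower. Of 8 tubulin and cohesin acetylation partners of HDAC6 and HDAC8, 6 passed and all were within 1.5-fold in the deposited FPKM. After median-ratio scaling 1 of them, Smc1b, was over 1.5-fold lower (-0.60), and with quantile normalization 0 were. The cohesin acetyltransferase Esco2 was the most abundant (142 ± 19.3 and 181 ± 22.1 FPKM), and the cohesin subunits Smc1a (17.7 ± 3.16 and 25.4 ± 3.66) and Smc1b (23.8 ± 5.40 and 17.7 ± 2.42) differed in opposite directions, Smc1b without overlap.

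**Figure D4:**
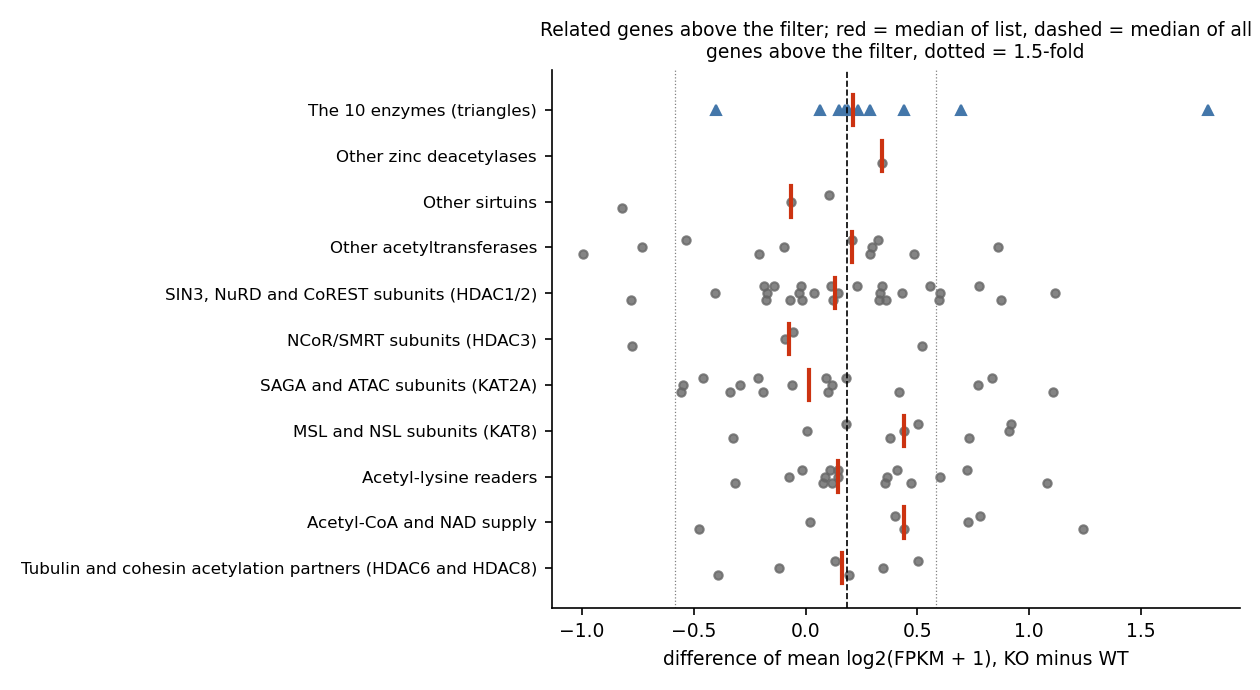
Horizontal axis, mean log2(FPKM + 1) of KO oocytes minus that of WT oocytes, for each gene above the filter in 10 lists of related genes (points) and for the 10 enzymes (triangles); red bars are medians, the dashed line is the median of all genes above the filter (0.18) and dotted lines are 1.5-fold. Sirt1, at 1.80, lies to the right of every gene of these lists.

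Across these 10 lists, 99 of 138 genes passed the filter, of which 18 were higher by over 1.5-fold, 5 lower and 76 within the limit. Of all genes above the filter 22.6% were higher and 7.92% lower. In the deposited FPKM 74.0% of the genes over 1.5-fold apart, of all genes above the filter, were higher in KO oocytes, and this share was 54.6% with median-ratio scaling and 50.6% with quantile normalization. The lists then held 10 genes over 1.5-fold higher and 11 lower, and 10 higher and 8 lower, where the background was 15.7% higher and 13.1% lower, and 13.5% higher and 13.2% lower. The median of all genes moved from 0.18 to 0.02 and -0.01.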

How the data were processed

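RNA was sequenced from 7 single MII oocytes (3 WT, 4 KO) after cDNA amplification with a SMARTer ultra-low-input kit, per the labels' protocols. The authors deposited FPKM, not logged, with 1 value per Ensembl gene and oocyte. Bowtie 0.12.8, TopHat2 2.0.2, HTSeq, edgeR 3.1.10 and the mm9 build are listed in the submitters' processing notes without their roles. Genes were named through GENCODE M21, which named 97.4% of the 8033 genes kept by the filter (FPKM 1 or more, 3 oocytes or more), and promoter sequences came from RefSeq on GRCm38.p6. The spike-in RNA was not used here, so levels are relative to other RNA of the same oocyte.

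Differences are of mean log2(FPKM + 1), KO minus WT, computed in Python 3.11.15 with pandas 2.3.3. The pseudocount understates differences of low genes. Reads were recovered as the smallest whole numbers that reproduce a gene's FPKM within 0.01 read, for all 18300 genes above 0. A factor common to all oocytes of a gene would be missed. The procedures were tested on simulated data. Intervals are exact and cover counting error only, since amplified reads without molecular identifiers are not independent molecules.

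Each genotype counts as 1 sample, so no test of genotype was run. All 10 members, Kat2b as the paralogue of Kat2a, and the targeted gene Hira were named. From each list of related genes with at least 5 above the filter, the 2 with the largest absolute difference and the most abundant were named, and from shorter lists those above the filter. Amh, Foxl2, Nr5a1, Hdac7, Sirt2, Sirt3, Sirt7, Gm10093, Gm16145 and Prss8 were named after their values were seen. Members and lists were chosen with earlier results of these data known, and the share of Sirt1 in the deacetylase sum and the reference exon lengths were added after seeing the data. Alternatives for counts, medians and single genes were pseudocounts of 0.1 and 5, no filter, median-ratio scaling, quantile normalization, and leaving out each oocyte. For the ratios they were the ratio of summed FPKM, a pseudocount of 1 on each FPKM, quantile normalization and leaving out each oocyte. Reference exon lengths were added for the acetyltransferase to deacetylase ratio and the Sirt1 ratio.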

Additional observations from a re-analysis of the deposited data

Results flagged for a closer look

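In several values 1 of the 4 KO oocytes stood far from the other three, with a gap to the nearest that took more of the range than Dixon's 95% critical value for 4 samples. The 3 WT oocytes were too few for this rule. Chance flags about 1 in 20 groups, and 8 of 69 values were picked out, several of which share a gene. Hdac1 was at 1.48 FPKM in KO1 and at 3.096 to 3.28 in the others. Kat8 was at 9.88 FPKM in KO2 and at 3.67 to 4.67 in the others, and with it the summed acetyltransferase FPKM was 40.4 in KO2 against 29.8 to 31.5. Sirt6 was also high in KO2, at 7.40 FPKM against 2.82 to 3.36. Hira was at 0.0242 FPKM in KO3, on 5 reads, and at 0.0941 to 0.0997 in the others, on 12 to 17 reads. The Crebbp to Ep300 ratio was 8.10 in KO4 against 5.70 to 5.91, which is 0.124 against 0.169 to 0.176 when inverted. Hdac6 took 3.86% of the deacetylase sum in KO1 and 1.01% to 1.34% in the others.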

How the results depend on the processing

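The count of members over 1.5-fold higher in KO oocytes was 2, and it was 1 (Sirt1) with a pseudocount of 5, with median-ratio scaling and with quantile normalization. It stayed at 2 without any single oocyte, but without WT1 the pair was Sirt1 and Hdac2, not Hdac1. The count over 1.5-fold lower was 0, and it was 1 (Kat8) with quantile normalization, without WT2 or without KO2, so it ranged from 0 to 1 with an oocyte left out. Sirt1 was over 1.5-fold higher in all 12 alternatives (1.02 to 2.28, the lowest with a pseudocount of 5). The acetyltransferase to deacetylase ratio was lower in KO in all 11 alternatives (log2 -0.99 to -0.61), and the ratio of Sirt1 to the other deacetylases higher in all 11 (1.35 to 2.07). The cause of the changed counts was not tested. No paired analysis was possible because the values come from no test, with 1 sample a genotype, and the labels do not say that a number shared by a WT and a KO oocyte marks a common animal, litter or day. Among the members, depth limits Hdac3, Hdac6 and Kat2a most, with 11 to 307 reads per oocyte.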
